A study of Mus musculus with 24 samples.

Results

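The genes described are 10 nuclear receptors through which hepatocytes read lipids, bile acids and foreign compounds: Ppara, Ppard, Pparg, Rxra, Nr1h3, Nr1h4, Nr1i2, Nr1i3, Hnf4a and Esrra. They were chosen by name from textbook knowledge of liver metabolism, with earlier results of these data known. They were matched by symbol to the Ensembl gene identifiers of the files. All 10 were found among 41388 genes, and all 10 passed the filter on low counts that kept 16757 genes for testing.

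The data were read counts per gene from polyadenylated RNA of mouse liver in a factorial design of 2 genotypes and 2 feeding states. The groups were knockout fasted (n = 6), knockout fed (n = 6), control fasted (n = 5) and control fed (n = 5) livers. Knockout livers were labelled as lacking Gpt2, the gene for the mitochondrial alanine transaminase 2, in the liver, and controls carried the floxed Gpt2 allele (fl/fl). Fasted mice went 18 h without food and fed mice ate freely. The sources used here do not give strain, age or the Cre line that made the deletion. Nothing in the labels says that each library came from a different mouse, so p-values measure the spread between libraries only.

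Nuclear receptors are transcription factors, and the activity of many, though not all, is set by small lipophilic ligands. The PPARs bind fatty acids, Nr1h3 (LXRα) binds oxysterols, Nr1h4 (FXR) binds bile acids, and Nr1i2 (PXR) and Nr1i3 (CAR) sense drugs and other foreign compounds. These receptors bind DNA as heterodimers with an RXR, of which Rxra is the main form in liver, whereas Hnf4a binds as a homodimer and keeps up the hepatocyte programme, and Esrra (ERRα) drives mitochondrial genes together with the co-activator Ppargc1a. Ppara is known as the receptor through which fasting turns on fatty acid oxidation and ketone body synthesis in liver.

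Of 24 labelled libraries 22 were used, with 18.4 to 55.3 M reads assigned to genes each. The file of control fed replicate 6 was truncated. The library labelled control fasted replicate 4 did not look like liver, since its 8 hepatocyte markers summed to 1771 CPM (counts per M counted reads), against at least 74480 CPM in every other library, and its 7 kidney tubule markers summed to 13170 CPM against at most 21.6. In that library Nr1i3 had 12 reads (0.171 CPM). Results below leave it out, and the calls on receptors and on the gene lists are also given with it. The targeted gene matched the labels in the 22 libraries: Gpt2 averaged 111.6 ± 36.3 CPM in knockout fasted and 697 ± 86.7 CPM in control fasted livers, and 60.5 ± 11.3 CPM in knockout fed and 370.5 ± 51.9 CPM in control fed livers (SD), with no overlap in either feeding state.

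Compared per kilobase of gene length, the receptors fell into 3 levels. Hnf4a, with a median of 143.5 RPKM (CPM per kilobase of gene length, scaled between libraries by TMM) over the 22 libraries, and Rxra, with 99.9 RPKM, stood at the top, at the 98.0 and 97.3 percentiles of all tested genes. Nr1h4 (45.6 RPKM), Nr1h3 (40.3 RPKM), Ppara (30.8 RPKM), Nr1i3 (29.1 RPKM), Nr1i2 (25.01 RPKM) and Esrra (11.5 RPKM) followed. Pparg (2.45 RPKM) and Ppard (1.604 RPKM), the PPARs known chiefly from fat and from muscle and other tissues, were near the middle of all tested genes, at the 54.7 and 46.7 percentiles. Their counts were also small, down to 32 reads for Pparg and 88 reads for Ppard in a library, against at least 480 reads for any other of the receptors.

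**Figure D1:**
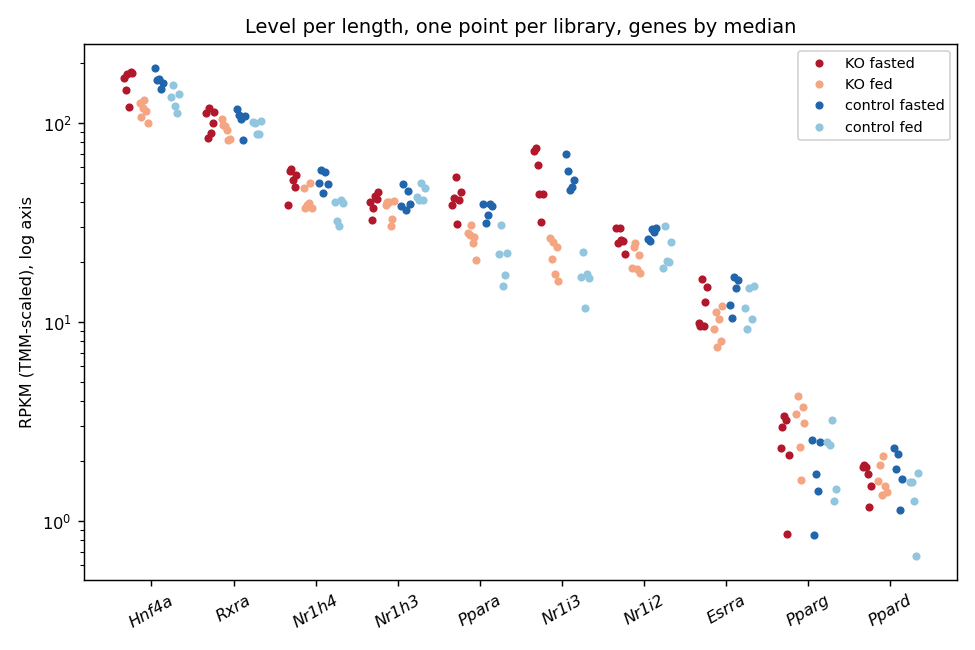
Level per length of the 10 receptor genes in each of 22 liver libraries (RPKM, TMM-scaled, log axis), with genes ordered by their median and 1 point per library, coloured by group. Hnf4a and Rxra lie at the top, Pparg and Ppard at the bottom, and Nr1i3 shows the widest gap between its fasted and its fed libraries.

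Feeding state changed the order in the middle of this scale. In fasted livers Nr1i3 took the third place in both genotypes, with 54.6 RPKM in knockout and 54.4 RPKM in control livers, although its range overlapped that of the next gene, Nr1h4 (51.4 and 51.6 RPKM). In fed livers Nr1i3 averaged 21.6 RPKM in knockout and 17.0 RPKM in control mice, and its range overlapped those of Ppara and Nr1i2 in both genotypes. Esrra lay below Nr1i2 without overlap in all 4 groups, but its range reached that of Nr1i3 in control fed livers. Pparg and Ppard overlapped in all 4 groups. The Hnf4a and Rxra ranges overlapped in knockout fed livers only.

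The Nr1i3 level carries a limit of its own. Its exons share 2268 of 4414 bases (51.4%) with Tomm40l, a mitochondrial import gene on the opposite strand, and whether the counting used strand is not stated in these sources. Reads from these bases may thus be assigned to either gene or to neither. If no shared read had been counted, the median would be 59.75 RPKM over the unshared 2146 bases, an alternative added after the data were seen, and Nr1i3 would take the third place over all 22 libraries. Differences between groups do not depend on the length used. Of the other members, Esrra shared 73 exon bases with Trmt112 and 91 with Mir6990, Nr1h3 shared 34 with Gm13783, and no exon base of the others was shared.

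Fasting raised Nr1i3 and Ppara in both genotypes, and no receptor passed the test in the other direction. The test was edgeR's quasi-likelihood test over all 16757 genes, passed at a Benjamini-Hochberg adjusted p under 0.05. In knockout mice Nr1i3, Ppara and Hnf4a passed the test, which is 3 of 10 members, against 6.14% of all tested genes called in either direction and 2.88% called higher. In control mice Nr1i3, Ppara and Nr1h4 passed, again 3 of 10, against 8.12% of all tested genes called and 3.99% called higher. At an unadjusted p under 0.05 edgeR gave 5 of 10 members in each genotype, against 16.0% of all tested genes in knockouts and 19.6% in controls. The receptors were chosen with earlier results of these data known, so these shares are description only. The median log2 fold change (fasted over fed) of the 10 genes was 0.31 in knockout and 0.30 in control livers, beside medians of 0.01 and 0.00 over all tested genes. The 2 fasting comparisons share no library, but both come from 1 fit of the 4 groups and share its estimate of the spread. In bulk RNA, more receptor RNA per hepatocyte and a larger share of hepatocyte RNA in the sample cannot be told apart. Summed hepatocyte marker levels overlapped between fasted and fed livers (79850 to 156400 against 74480 to 131800 CPM in knockouts, and 78470 to 137300 against 76260 to 112900 CPM in controls). Medians of these sums were higher in fasted livers, at 113100 against 91070 CPM in knockouts and 107900 against 89870 CPM in controls. The list medians of log2 fold change were 0.19 and 0.1, and of the 8 markers only Apoa1 passed the test, in controls (log2 fold change 0.71 ± 0.20). Some single markers of other liver cell types also passed the test with fasting. Of 8 stellate cell markers 1 was called in knockouts and 2 in controls, with list medians of -0.37 and -0.1. Of 8 sinusoidal endothelial markers 1 was called in each genotype, with list medians of 0.06 and 0.18. Among 10 Kupffer cell markers 0 were called in either genotype. The collagen gene Col3a1 of stellate cells had log2 fold changes of -1.45 ± 0.20 in knockouts and -1.33 ± 0.22 in controls, and Lyve1 of sinusoidal endothelial cells had 1.0 ± 0.31 and 1.28 ± 0.34, while Col1a1 (-1.17 ± 0.32) and the cholangiocyte marker Spp1 (-0.73 ± 0.20) passed in controls. Stellate cell markers summed to 105 to 177 CPM in knockout fasted and 144.5 to 182 CPM in knockout fed livers, and to 76.5 to 140.2 CPM in control fasted and 123 to 160 CPM in control fed livers. The part of these cells in the fasting results was not tested.

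**Figure D2:**
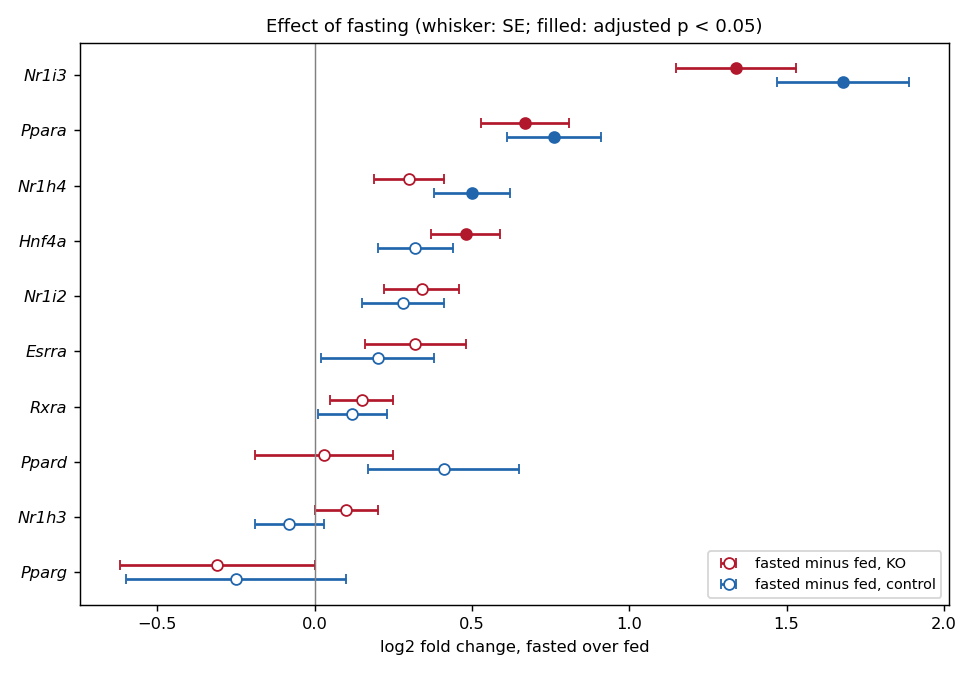
Effect of fasting on each receptor gene as log2 fold change, fasted over fed, in knockout and control livers, with whiskers of 1 SE and filled points where edgeR's adjusted p was under 0.05. Nr1i3 and Ppara are filled in both genotypes, Hnf4a in knockouts and Nr1h4 in controls, and Pparg is the only gene whose points lie left of 0 in both genotypes.

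Among the foreign-compound sensors, Nr1i3 (CAR) showed the largest rise of the 10 genes in both genotypes. In knockout mice Nr1i3 lay between 140.4 and 331 CPM (median 232) in fasted livers, and between 71.0 and 116 CPM (median 98.3) in fed livers. In control mice Nr1i3 had 307, 252, 202.5, 209.6 and 229 CPM in fasted livers, against 74.4, 99.0, 52.0, 77.2 and 73.0 CPM in fed livers. Every fasted library was above every fed library of its genotype, as for 1.81% of all tested genes in knockouts and 3.87% in controls. The knockout fasted libraries were the most spread, with a coefficient of variation of 31.9%. The log2 fold change was 1.34 ± 0.19 (SE) in knockout and 1.68 ± 0.21 in control mice, or 2.53-fold and 3.20-fold (edgeR's quasi-likelihood test, Benjamini-Hochberg adjusted p = 3.68e-05 and 6.94e-06). By size of fold change it ranked 88 of the 483 genes called higher in knockouts and 125 of the 668 called higher in controls.

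The antisense neighbour moved with it. Tomm40l averaged 14.4 CPM in knockout fasted and 4.40 CPM in knockout fed livers, and 11.96 CPM in control fasted and 4.22 CPM in control fed livers. Its log2 fold change with fasting was 1.71 ± 0.28 in knockouts and 1.50 ± 0.31 in controls (edgeR's quasi-likelihood test, adjusted p = 7.92e-05 and 0.00118). Nr1i3 had 16.7, 25.7, 21.5 and 18.6 times as many reads as Tomm40l on average in knockout fasted, knockout fed, control fasted and control fed livers. How far reads of the shared exon bases set both changes was not tested.

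Nr1i2 (PXR), the other foreign-compound sensor, did not pass the test. It had a lowest, median and highest level of 56.0, 65.7 and 75.7 CPM in knockout fasted livers, and of 44.8, 51.3 and 63.4 CPM in knockout fed livers. In controls it had 66.97, 64.7, 74.7, 72.1 and 75.8 CPM in fasted livers, and 47.6, 77.1, 51.8, 51.3 and 64.0 CPM in fed livers. The groups overlapped in both genotypes, and control fed replicate 2 was above every control fasted library. The log2 fold change was 0.34 ± 0.12 in knockouts and 0.28 ± 0.13 in controls (edgeR's quasi-likelihood test, adjusted p = 0.0869 and 0.212). Without control fed replicate 2 the value in controls was 0.40 with an edgeR adjusted p of 0.0459, and without knockout fed replicate 3 the value in knockouts was 0.40 with an edgeR adjusted p of 0.0414.

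Ppara, the fatty acid receptor of the fasted liver, was higher in fasted than in fed mice of both genotypes. In knockout mice Ppara ranged from 119 to 205 CPM (median 158.6) in fasted livers, against 78.3 to 117 CPM (median 104) in fed livers. In control mice Ppara had 149.9, 120.0, 132, 149.9 and 147 CPM in fasted livers, against 84.4, 118, 58.1, 65.9 and 85.3 CPM in fed livers. The groups did not overlap in either genotype, but the highest fed library came close to the lowest fasted one in both. The log2 fold change was 0.67 ± 0.14 in knockouts and 0.76 ± 0.15 in controls (edgeR's quasi-likelihood test, Benjamini-Hochberg adjusted p = 0.00119 and 0.000601). Groups without overlap, fasted higher, made up 1.81% of all tested genes in knockouts and 3.87% in controls.

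The other PPARs stayed low and did not pass. Ppard had a median of 8.34 CPM (5.42 to 8.87) in knockout fasted and 7.15 CPM (6.23 to 9.81) in knockout fed livers. In controls Ppard had 10.7, 8.49, 10.1, 5.24 and 7.54 CPM in fasted livers, and 7.29, 7.27, 5.84, 3.09 and 8.03 CPM in fed livers. These groups overlapped broadly, and the log2 fold change was 0.03 ± 0.22 in knockouts and 0.41 ± 0.24 in controls (edgeR's quasi-likelihood test, adjusted p = 0.984 and 0.369).

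Pparg, the adipogenic PPAR, was the most variable of the 10 genes, with a coefficient of variation between 31.1% and 40.2% within groups. It had a median of 5.26 CPM (1.71 to 6.71) in knockout fasted and 6.50 CPM (3.18 to 8.39) in knockout fed livers. In controls Pparg had 5.08, 1.69, 3.41, 2.80 and 4.94 CPM in fasted livers, and 4.94, 4.76, 6.39, 2.496 and 2.87 CPM in fed livers. The ranges overlapped almost wholly, and the log2 fold change was -0.31 ± 0.31 in knockouts and -0.25 ± 0.35 in controls (edgeR's quasi-likelihood test, adjusted p = 0.773 and 0.788). Adipocyte markers were near the floor: 7 of them summed to at most 6.73 CPM in any of the 22 libraries, and Ucp1 had no read in any group. Of the RPKM of the 3 PPAR genes, Ppara made up 90.8 ± 3.02% in knockout fasted, 84.7 ± 2.97% in knockout fed, 91.0 ± 2.00% in control fasted and 85.5 ± 5.08% in control fed livers (SD).

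**Figure D3:**
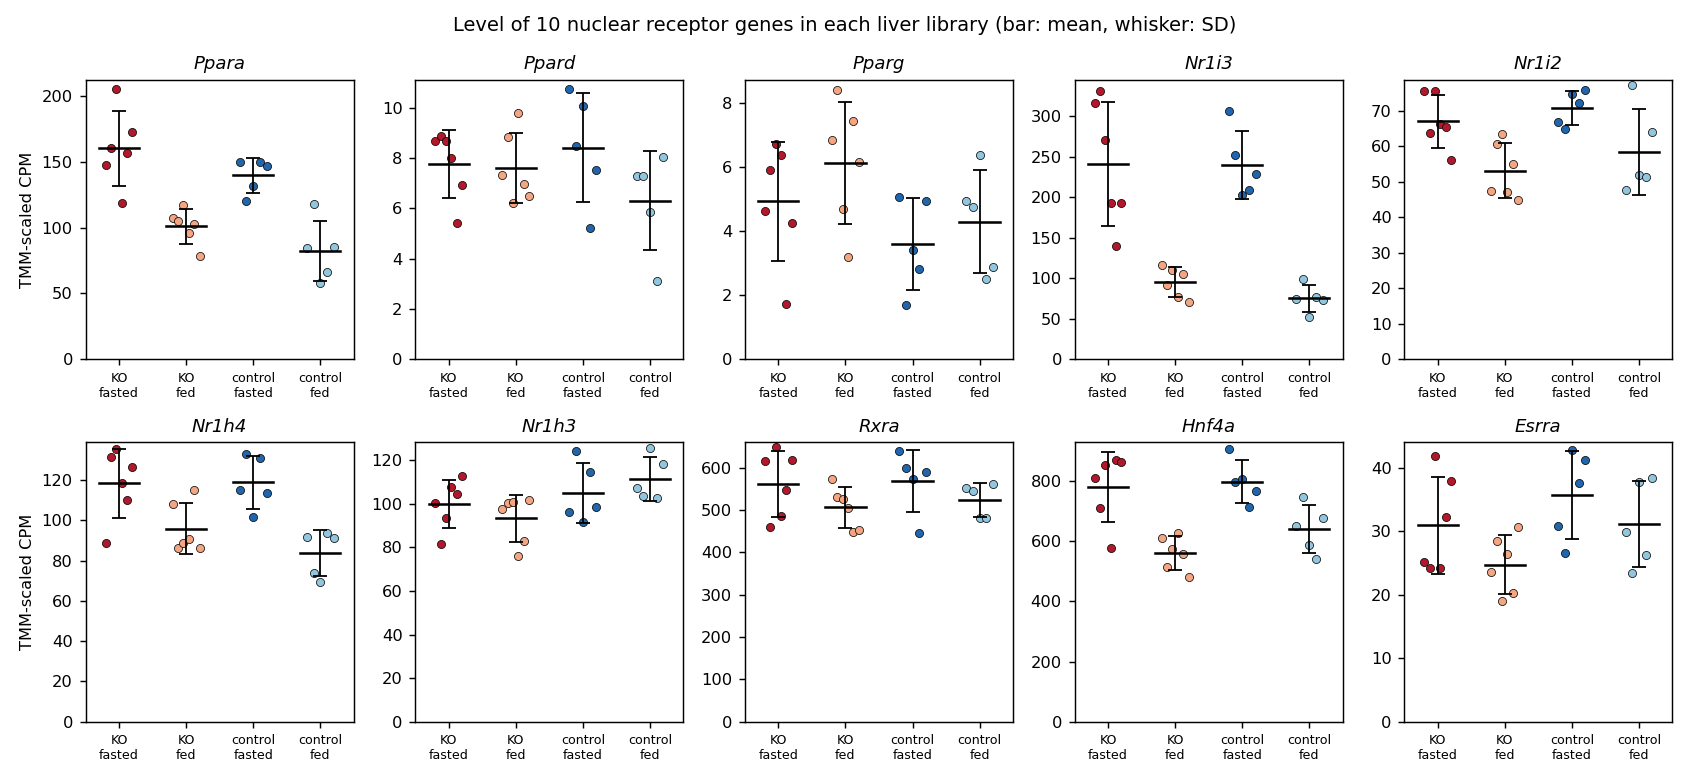
Level of each of the 10 receptor genes in every library (TMM-scaled CPM), by group, with the mean as a bar and the SD as a whisker. Fasted and fed libraries separate without overlap for Ppara and Nr1i3 in both genotypes and for Nr1h4 in controls. Of all tested genes, 1.81% in knockouts and 3.87% in controls separate so, with fasted higher.

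Nr1h4 (FXR), the bile acid receptor, passed the test in controls. In control mice it had 115, 133, 102, 131 and 114 CPM in fasted livers, against 91.8, 73.8, 69.5, 93.8 and 91.0 CPM in fed livers. All control fasted libraries were above all control fed ones, as for 3.87% of all tested genes. The log2 fold change was 0.50 ± 0.12 (edgeR's quasi-likelihood test, Benjamini-Hochberg adjusted p = 0.00715). In knockout mice it ranged from 89.0 to 135 CPM (median 122) in fasted livers, and from 86.2 to 115 CPM (median 89.6) in fed livers. These overlapped, with knockout fasted replicates 1 and 5 within the fed range, and the log2 fold change was 0.30 ± 0.11 (edgeR's quasi-likelihood test, adjusted p = 0.12). Without knockout fasted replicate 1 it was 0.38, with an edgeR adjusted p of 0.0384. The difference between the genotypes in this fasting effect was -0.20 ± 0.17 and did not pass the interaction test.

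Nr1h3 (LXRα), the oxysterol receptor, did not pass in either genotype. Its lowest, median and highest levels were 81.4, 102 and 112.5 CPM in knockout fasted livers, and 76.0, 98.9 and 102 CPM in knockout fed livers. In controls it had 96.0, 124, 91.8, 115 and 98.6 CPM in fasted livers, and 107, 103, 125.6, 103 and 118 CPM in fed livers. The log2 fold change was 0.10 ± 0.10 in knockouts and -0.08 ± 0.11 in controls (edgeR's quasi-likelihood test, adjusted p = 0.788 in both). Of the RPKM of Nr1h3 and Nr1h2 (LXRβ), Nr1h3 made up between 71.3% and 77.1% on average in the 4 groups.

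Rxra, the shared partner, did not pass in either genotype. Rxra ranged from 460.1 to 649.5 CPM (median 581) in knockout fasted and from 449 to 574 CPM (median 515) in knockout fed livers. In controls it had 639, 598, 572, 446 and 590.0 CPM in fasted livers, and 551, 544.5, 482, 481 and 561 CPM in fed livers. The groups overlapped, and the log2 fold change was 0.15 ± 0.10 in knockouts and 0.12 ± 0.11 in controls (edgeR's quasi-likelihood test, adjusted p = 0.566 and 0.665). The RPKM of 8 partner genes (the 3 PPARs, Nr1h3, Nr1h2, Nr1h4, Nr1i2 and Nr1i3) summed to 234 ± 22.02 in knockout fasted and 167 ± 13.3 in knockout fed livers, and to 232 ± 11.3 in control fasted and 159 ± 12.1 in control fed livers (SD). This sum takes Nr1i3 over its full gene length and includes genes that did not pass, and no test was run on it.

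Hnf4a, the most abundant of the 10, passed in knockouts. In knockout mice it ranged from 578 to 868 CPM (median 831) in fasted livers, against 482 to 628 CPM (median 565) in fed livers. Of the 6 knockout fasted libraries 5 were above every fed one, and knockout fasted replicate 4 was within the fed range. The log2 fold change was 0.48 ± 0.11 (edgeR's quasi-likelihood test, Benjamini-Hochberg adjusted p = 0.00373), and leaving out any library kept its adjusted p at 0.0148 or below. In control mice it had 906.5, 796, 806, 712.5 and 767 CPM in fasted livers, against 649, 745, 588, 541 and 677 CPM in fed livers. Only control fed replicate 2 reached the fasted range, and the log2 fold change of 0.32 ± 0.12 missed the threshold (edgeR's quasi-likelihood test, adjusted p = 0.0983). The fasting effects of the 2 genotypes differed by 0.16 ± 0.16, which did not pass the interaction test.

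Esrra, the mitochondrial regulator, ranged from 24.1 to 41.9 CPM (median 28.7) in knockout fasted and from 19.0 to 30.7 CPM (median 24.95) in knockout fed livers. In controls it had 30.7, 26.5, 42.8, 37.6 and 41.1 CPM in fasted livers, and 29.9, 23.4, 37.7, 26.2 and 38.3 CPM in fed livers. The groups overlapped in both genotypes. The log2 fold change was 0.32 ± 0.16 in knockouts and 0.20 ± 0.18 in controls (edgeR's quasi-likelihood test, adjusted p = 0.329 and 0.622).

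All of these fasting calls were lost once the kidney-like library was put back. With 23 libraries 0 members were called in either fasting comparison by edgeR's quasi-likelihood test, with 3 at an unadjusted p under 0.05 in each. Of all 17055 genes tested in that fit, 379 were called in knockouts and 805 in controls. At an unadjusted p under 0.05 these numbers were 2001 and 3288. Nr1i3 then had a log2 fold change of 1.34 in knockouts and 1.42 in controls (edgeR adjusted p = 0.476 and 0.298), and Ppara one of 0.67 and 0.61 (edgeR adjusted p = 0.0846 and 0.0927). Hnf4a in knockouts kept 0.48 (edgeR adjusted p = 0.117), and Nr1h4 in controls had 0.39 (edgeR adjusted p = 0.16). The values in knockouts, which hold no such library, stayed the same, and the SE of Ppara in knockouts was 0.198 with it against 0.14 without it.

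Sequence before the start site is shown for the genes with the largest fasting effect (Nr1i3), with an effect in controls (Nr1h4) and with none called (Nr1i2), whose windows hold no exon base of the gene. The windows are 250 bases upstream of RefSeq starts in GRCm38.p6, read 5′ to 3′ on the gene's strand. Capitals mark motif matches. Nr1i3 is on the plus strand at chr1:171213720-171213969, Nr1h4 on the minus strand at chr10:89506659-89506908, before an internal start in an intron of the longer gene model, and Nr1i2 on the minus strand at chr16:38294825-38295074.
Nr1i3: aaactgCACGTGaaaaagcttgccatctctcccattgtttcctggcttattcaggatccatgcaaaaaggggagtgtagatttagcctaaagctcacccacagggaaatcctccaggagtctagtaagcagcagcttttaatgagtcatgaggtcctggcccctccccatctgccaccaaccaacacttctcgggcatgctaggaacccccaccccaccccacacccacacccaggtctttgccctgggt
Nr1h4: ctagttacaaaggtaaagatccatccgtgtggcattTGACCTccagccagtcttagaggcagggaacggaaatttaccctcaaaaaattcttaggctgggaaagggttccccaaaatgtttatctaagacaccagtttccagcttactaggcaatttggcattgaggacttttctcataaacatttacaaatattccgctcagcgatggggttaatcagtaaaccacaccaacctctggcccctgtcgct
Nr1i2: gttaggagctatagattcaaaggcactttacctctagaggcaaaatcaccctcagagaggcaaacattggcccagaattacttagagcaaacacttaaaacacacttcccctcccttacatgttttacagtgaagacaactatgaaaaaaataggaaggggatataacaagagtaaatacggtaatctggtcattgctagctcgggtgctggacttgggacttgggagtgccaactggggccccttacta
All 10 genes had windows, 15 in all, and these were searched on both strands over 250 bases for 6 motifs. The receptor half-site AGGTCA, which the ERR-type motif TCAAGGTCA and the direct repeat AGGTCANAGGTCA contain, was found in 4 of 15 windows (26.7%, those of Pparg, Rxra and Nr1h4), against 14.0% of 32817 windows of all genes. In Nr1h4 it is read on the other strand as TGACCT, 214 to 209 bases before the start (positions -214 to -209). The E-box CACGTG was found in 1 window, that of Nr1i3 at positions -244 to -239, against 6.02% of all windows. No member window held AGGTCANAGGTCA (0.0335% of all windows), the HNF4A-type CAAAGTCCA (0.384%), TCAAGGTCA (0.387%) or the FOXO-type GTAAACA (3.16%). A match here describes letters, not binding.

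For each called receptor the 3 genes of most similar level over the 22 libraries were sought. Likeness was the root mean square difference of centred log2 CPM, searched over the 8978 genes whose log2 CPM averaged at least 2. For Nr1i3 they included Gk (glycerol kinase, 0.268) and Acadm (medium-chain acyl-CoA dehydrogenase, 0.273). For Ppara they included Vwa8 (0.229) and Slc25a13 (the mitochondrial aspartate-glutamate carrier, 0.233). For Nr1h4 they were Pank1 (pantothenate kinase, 0.147), Dennd4a (0.153) and Etf1 (0.161), and for Hnf4a they were Sec16b (0.135), Mpdu1 (0.146) and Ptpn11 (0.147). Smaller values stand beside genes that vary less, so the values rank genes within a receptor and not between receptors.

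Textbook target genes of the receptors moved in different ways, and most PPARA targets rose. The lists were chosen with earlier results of these data known. Counts for every target list are read against 6.14% of all tested genes called with fasting in knockouts and 8.12% in controls. Genes called higher made up 2.88% and 3.99% of all tested genes. Of 20 PPARA targets 17 were called higher and 0 lower in knockouts, and likewise 17 and 0 in controls, with median log2 fold changes of 1.11 and 1.36. Cpt1a, the gatekeeper of mitochondrial fatty acid entry, averaged 753 ± 139 CPM in knockout fasted and 299 ± 30.03 CPM in knockout fed livers, and 799 ± 68.1 CPM in control fasted and 246 ± 61.9 CPM in control fed livers (SD). Its log2 fold change was 1.33 ± 0.13 in knockouts and 1.70 ± 0.14 in controls, that of Slc25a20 was 1.12 ± 0.10 and 1.31 ± 0.11, and that of Acadm was 1.12 ± 0.11 and 1.50 ± 0.12. Pdk4, Fabp1 and Angptl4 did not pass in either genotype.

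PPARG targets were called higher for Cidec and Plin4, both lipid droplet proteins, in each genotype, and for the fatty acid transporter Cd36 in controls, out of 7 tested of 9. Their log2 fold changes were 3.16 ± 0.43 and 2.98 ± 0.46 for Cidec and 3.49 ± 0.62 and 2.64 ± 0.65 for Plin4, in knockouts and in controls, and 1.04 ± 0.26 for Cd36 in controls. The median over the list was 0.66 in knockouts and 1.36 in controls. Pparg itself did not pass, as given above.

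Of 12 LXR targets 3 were called lower and 1 higher in each genotype. Srebf1, the lipogenic transcription factor, had a log2 fold change of -2.10 ± 0.34 in knockouts and -2.5 ± 0.37 in controls, and the lipogenic enzymes Scd1 (-1.66 ± 0.25 and -1.69 ± 0.27) and Fasn (-1.67 ± 0.31 and -1.77 ± 0.34) fell with it. Mylip, which degrades the LDL receptor, was higher by 0.65 ± 0.20 and 0.78 ± 0.22. Its call was lost in knockouts without knockout fasted replicate 2, 4, 5 or 6 or knockout fed replicate 1, 2, 4 or 6 (0.59 to 0.65), and in controls without control fasted replicate 2 (0.69) or control fed replicate 1 (0.67). The median over the list was -0.11 in knockouts and -0.08 in controls.

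Of 7 tested FXR targets (9 in the list), Abcb11, the bile salt export pump, fell and Abcb4, the phospholipid flippase of bile, rose in both genotypes. Abcb11 averaged 219.8 ± 49.1 CPM in knockout fasted and 504 ± 79.3 CPM in knockout fed livers, and 209.8 ± 22.3 CPM in control fasted and 501 ± 40.5 CPM in control fed livers (SD), with log2 fold changes of -1.20 ± 0.12 and -1.26 ± 0.14. Abcb4 changed by 1.44 ± 0.12 in knockouts and 1.48 ± 0.13 in controls. Nr0b2 (SHP), the small repressor induced by FXR, had -0.63 ± 0.46 in knockouts and -1.19 ± 0.51 in controls and missed the threshold (edgeR's quasi-likelihood test, adjusted p = 0.62 and 0.197). With runs of title numbers as a random block, limma called 3 FXR targets lower in controls against 1 by edgeR, the others being Nr0b2 (-1.42, adjusted p = 0.0444) and Osgin1 (-1.42, adjusted p = 0.0233).

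Of 15 PXR and CAR targets 5 were called higher and 3 lower in knockouts, and 3 higher and 3 lower in controls, while Nr1i3 itself rose. Por, the electron donor of cytochromes P450, was higher by 1.11 ± 0.16 in knockouts and 1.50 ± 0.18 in controls. Cyp2c29 (-1.88 ± 0.18 and -1.91 ± 0.20), Cyp2c55 (-2.87 ± 0.46 and -3.80 ± 0.53) and Gstm1 (-0.95 ± 0.16 and -1.25 ± 0.17), enzymes of drug metabolism, were lower. Cyp2b10, the classic CAR target, had 10.7 ± 8.79 CPM in knockout fasted and 14.4 ± 7.67 CPM in knockout fed livers, and 10.7 ± 10.9 CPM in control fasted and 14.8 ± 5.09 CPM in control fed livers (SD), and did not pass (log2 fold change -0.41 ± 0.52 and -0.48 ± 0.58, edgeR's quasi-likelihood test, adjusted p = 0.844 and 0.752). Cyp3a11, the classic PXR target, had 0.36 ± 0.57 and -0.24 ± 0.62 and missed it too (edgeR's quasi-likelihood test, adjusted p = 0.891 and 0.904). With 1 library left out, 3 to 5 targets were called higher in knockouts and 2 to 3 in controls. In knockouts the call of the stress gene Gadd45b was lost in 18 such fits (log2 fold change 2.36 to 2.74), and that of Alas1, the first enzyme of haem synthesis, without knockout fasted replicate 3 or knockout fed replicate 2, 3, 4, 5 or 6 (1.4 to 1.52). In controls the call of the transporter Slco1a4 was lost without control fasted replicate 3 or control fed replicate 1 or 3 (0.94 to 0.99).

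Of 15 HNF4A targets 2 were called higher and 1 lower in knockouts, and 3 higher and 2 lower in controls. Over all tested genes 6.14% were called in knockouts and 8.12% in controls, in either direction. Mttp, which loads lipid onto apolipoprotein B, changed by 0.66 ± 0.11 and 0.57 ± 0.12, Cyp8b1, a bile acid synthesis enzyme, by 0.67 ± 0.18 and 1.50 ± 0.20, and Otc, a urea cycle enzyme, by -0.51 ± 0.11 and -0.71 ± 0.12, in knockouts and in controls. The Cyp8b1 call in knockouts was lost without knockout fasted replicate 3 (0.62) or 6 (0.52) or knockout fed replicate 4 (0.60). In controls the call of Apob was lost without control fasted replicate 1 or 5 or control fed replicate 1, 2, 3 or 4 (0.33 to 0.44), and that of the glycolytic enzyme Pklr without control fasted replicate 1, 3, 5 or 6 or control fed replicate 1, 2, 3 or 5 (-1.16 to -1.0). Targets called lower in controls numbered 1 to 3 over these fits. Of 13 tested ERRA targets 2 were called higher in each genotype and 1 lower in controls. Those called higher included Acadm, which the PPARA list holds too, and citrate synthase Cs was lower in controls (-0.52 ± 0.11).

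Co-regulators and other nuclear receptors are read against 6.14% of all tested genes called with fasting in knockouts and 8.12% in controls, and against 16.0% and 19.6% at an unadjusted p under 0.05. Of 20 tested co-regulators 0 were called in either genotype by edgeR's quasi-likelihood test, with 2 in knockouts and 3 in controls at an unadjusted p under 0.05, and 0 were called by DESeq2. Limma voom with sample weights called 1 in knockouts, Pprc1 (log2 fold change 0.71, adjusted p = 0.0489), and edgeR called 0 or 1 in each genotype with 1 library left out. Ppargc1a, co-activator of Esrra and Ppara, averaged 11.4 ± 3.31 CPM in knockout fasted and 8.83 ± 1.85 CPM in knockout fed livers, and 14.7 ± 5.02 CPM in control fasted and 10.8 ± 3.85 CPM in control fed livers (SD), with log2 fold changes of 0.37 ± 0.23 and 0.44 ± 0.25 (edgeR's quasi-likelihood test, adjusted p = 0.499 and 0.357). Of 31 tested nuclear receptors outside the 10, edgeR called the thyroid hormone receptor Thrb, lower in control fasted livers by -0.50 ± 0.13 on the log2 scale (edgeR's quasi-likelihood test, adjusted p = 0.0133), and not without control fed replicate 3 (-0.45). In controls 7 had an unadjusted p under 0.05, and Nr4a1, an orphan receptor named here after its values were seen, was called higher by DESeq2 (log2 fold change 1.48, adjusted p = 0.0323), with either other filter on low counts, and in 7 fits that left out 1 library. In knockouts 0 passed, with 6 at an unadjusted p under 0.05, and DESeq2 called 1, again Thrb, lower. With the kidney-like library put back, 379 of all 17055 genes tested were called with fasting in knockouts and 805 in controls, and the counts that follow are read against these. PPARA targets called higher numbered 16 in knockouts and 14 in controls, the FXR and HNF4A targets called higher numbered 0 in both, and the calls of Abcb11 and Abcb4 were lost. PXR and CAR targets then numbered 1 higher and 2 lower in knockouts and 2 higher and 3 lower in controls, and HNF4A targets 0 lower in knockouts and 1 lower in controls. LXR targets called higher numbered 0 in knockouts, ERRA targets numbered 1 higher in knockouts and 2 higher and 0 lower in controls, and 2 other nuclear receptors, Esrrb and Esrrg, were called higher in controls.

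**Figure D4:**
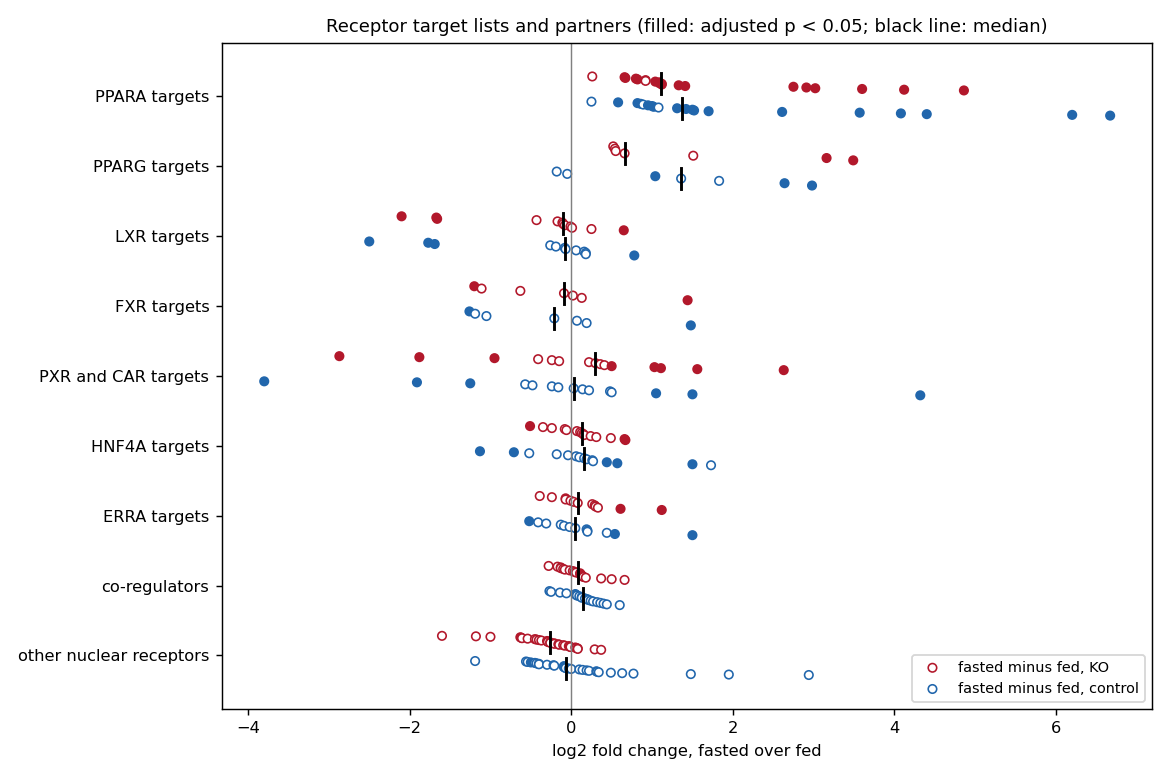
Log2 fold change with fasting, fasted over fed, of each tested gene in the receptor target lists, the co-regulators and the other nuclear receptors, in knockout and control livers, with filled points for adjusted p under 0.05 and a black line at each list's median. PPARA targets lie right of 0, with medians of 1.11 in knockouts and 1.36 in controls, and PPARG targets have medians of 0.66 and 1.36 with 2 and 3 of 7 called.

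Loss of Gpt2 moved none of the 10 receptors past the threshold. In fed livers 0 members were called by edgeR's quasi-likelihood test, with 2 at an unadjusted p under 0.05 and a smallest adjusted p of 0.466, against 0.00597% of all tested genes called and 9.01% at an unadjusted p under 0.05. DESeq2 called 0 with 1 at an unadjusted p under 0.05, and limma voom with sample weights called 0 with 3. In fasted livers 0 members were called by edgeR, DESeq2 or limma, with 0 at an unadjusted p under 0.05 in each, against 0.00597% of all tested genes called by edgeR and 4.01% at an unadjusted p under 0.05. Averaged over both feeding states edgeR again called 0, against 0.0358% of all genes called and 8.71% at an unadjusted p under 0.05, with 4 members at an unadjusted p under 0.05, namely Ppara (0.25 ± 0.10), Pparg (0.48 ± 0.23), Esrra (-0.27 ± 0.12) and Nr1h3 (-0.16 ± 0.08), and DESeq2 and limma each called 0 with 3.

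Nr1h3 was the member whose fed groups did not overlap between genotypes. It lay between 76.0 and 102 CPM in knockout fed livers (median 98.9), below the 102.8 to 126 CPM of control fed livers. The means were 93.2 ± 10.9 and 111 ± 10.01 CPM (SD, n = 6 and 5), a log2 fold change of -0.26 ± 0.11 (edgeR's quasi-likelihood test, adjusted p = 0.466). Of all tested genes 1.18% had groups without overlap in this comparison, and 0.477% had none and were lower in knockouts. In fasted livers the Nr1h3 groups overlapped, as did those of all 10 members (0.489% of all tested genes did not), with a log2 fold change of -0.07 ± 0.11.

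Of the genotype differences among the 10, none of which passed, that of Pparg was the largest and had the widest errors. Pparg was 0.51 ± 0.33 in fed and 0.45 ± 0.33 in fasted livers, Ppara 0.30 ± 0.14 and 0.20 ± 0.14, Nr1i3 0.34 ± 0.20 and 0.01 ± 0.20, and Esrra -0.33 ± 0.17 and -0.21 ± 0.17 (log2 fold change, knockout over control, ± SE). Ppard had 0.27 ± 0.23 and -0.12 ± 0.23, Nr1h4 0.19 ± 0.12 and -0.01 ± 0.12, and Nr1i2 -0.14 ± 0.12 and -0.08 ± 0.12. Hnf4a had -0.19 ± 0.11 and -0.03 ± 0.11, and Rxra had -0.05 ± 0.11 and -0.02 ± 0.11. Markers of sinusoidal endothelial cells lay higher in knockouts, with ranges that overlapped: their 8 genes summed to 169 to 269 CPM in knockout fasted and 146 to 199.5 CPM in control fasted livers, and to 176 to 265 CPM in knockout fed and 119 to 187 CPM in control fed livers. Of these markers 2 of 8 (Kdr and Cdh5) were called higher in the averaged genotype comparison, against 0.0358% of all tested genes called. In fed or in fasted livers alone 0 of the 8 were called. Kupffer cell markers summed to 132 to 292 CPM in knockout fasted and 125 to 163 CPM in control fasted livers, and to 172 to 272 CPM in knockout fed and 134 to 220.3 CPM in control fed livers, with 0 of 10 called by edgeR. Kupffer cells are known to express Nr1h3 and Pparg, and the part of both cell types in these values was not tested.

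The receptor targets, too, gave no call between genotypes by edgeR or limma. Of the 20 PPARA targets 0 were called by edgeR's quasi-likelihood test in fed or in fasted livers, against 0.00597% of all tested genes in each. By DESeq2 or limma 0 were called in either state. At an unadjusted p under 0.05 edgeR gave 6 of the 20 in fed and 0 in fasted livers, against 9.01% and 4.01% of all tested genes. The median log2 fold change of the PPARA targets, knockout over control, was 0.11 in fed and -0.08 in fasted livers, beside medians of 0.00 and 0.01 over all tested genes. The other target lists, the co-regulators and the other nuclear receptors likewise held 0 genes called by edgeR or limma, with 0 to 4 a list at an unadjusted p under 0.05 in edgeR. Averaged over feeding, 8.71% of all tested genes had such a p. DESeq2 called 1 PPARG target, Cd36, higher in fed livers and averaged over feeding. Over all genes DESeq2 called 83 of 18923 in fed livers and 39 of 12680 averaged over feeding.

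**Figure D5:**
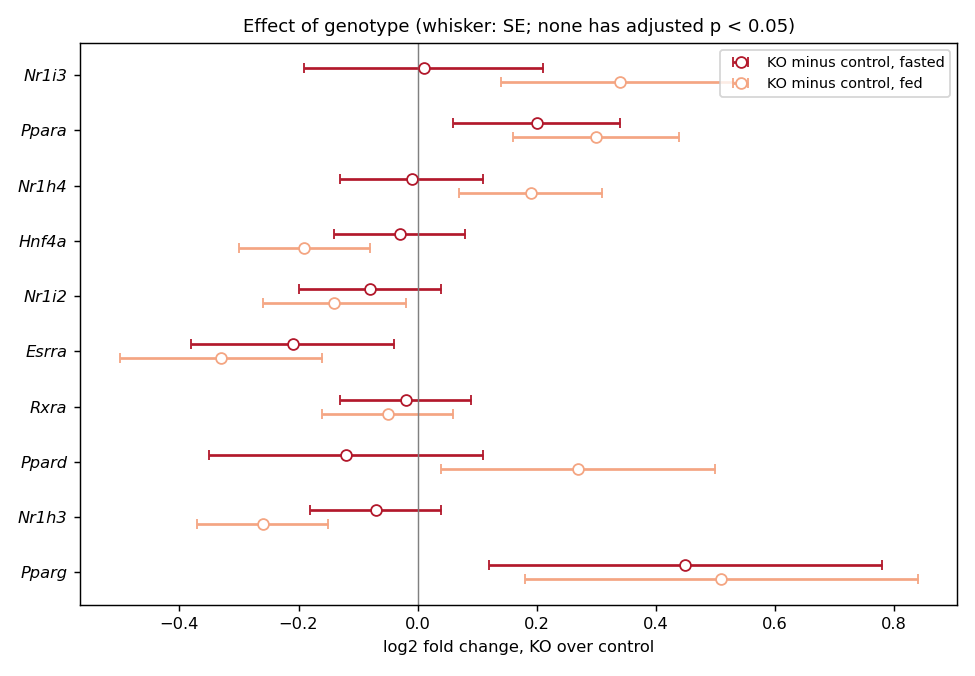
Effect of genotype on each receptor gene as log2 fold change, knockout over control, in fasted and in fed livers, with whiskers of 1 SE. All points are open because none had an adjusted p under 0.05, and Pparg lies farthest right with the longest whiskers.

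The fasting effect of the receptors was not shown to differ between genotypes. The interaction (fasting effect in knockouts minus that in controls) called 0 members by edgeR, DESeq2 or limma, with 0 at an unadjusted p under 0.05 in each, against 0.00597% of all tested genes called by edgeR and 4.69% at an unadjusted p under 0.05. Values ran from -0.39 ± 0.33 for Ppard and -0.34 ± 0.28 for Nr1i3 through -0.10 ± 0.20 for Ppara to 0.16 ± 0.16 for Hnf4a and 0.18 ± 0.16 for Nr1h3. A p that misses the threshold does not show that the genotypes respond alike.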

How the data were processed

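Polyadenylated liver RNA was sequenced, per the labels' protocols. The deposited counts per gene were made by the authors with STAR 2.5.1a, bcl2fastq, and Subread's featureCounts 1.4.6-p5 on GRCm38, per the submitters' processing notes. The other versions, the annotation release and the strand setting are not stated in these sources. The deposited CPM and RPKM values, per the file headers, were each count per M counted reads, and that per kilobase of the length column, and served only as a check. Symbols came from GENCODE M21 (97.3% of genes). Groups came from the sample titles.

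Counts of 22 libraries of 18.4 to 55.3 M reads (27.7 to 40.0 M in control fed, 23.0 to 44.5 M in knockout fed) were tested in 1 fit of the 4 groups with edgeR 4.0.16 in R 4.3.3 (TMM, filterByExpr with a minimum count of 10 and a minimum total of 15, robust glmQLFit and glmQLFTest), with a threshold of 0.05 on p-values adjusted after Benjamini-Hochberg over 16757 genes. Levels are TMM-scaled CPM and RPKM. The procedure was also run on counts simulated from its own fitted spread, and the outcome is not given here. Those counts held no outlying library, so the run does not test how the procedure handles one.

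The receptors, the 9 gene lists and the tests were chosen with earlier results of these data known. Named were all 10 receptors, Gpt2, from each list up to 4 called genes with the smallest adjusted p and textbook targets, and the 3 genes most like each called receptor. Some genes that this rule takes are left out of the text. The alternatives were RLE factors, library totals, 2 other filters, DESeq2 1.42.0, limma 3.58.1 voom with sample weights or with runs of title numbers as a random block, only the groups compared, 23 libraries, and each library left out in turn. The truncated library was not analysed here.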

Additional observations from a re-analysis of the deposited data

Results flagged for a closer look

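Ppard and Esrra were higher in the kidney-like library, labelled control fasted replicate 4, than in any of the 22 liver libraries. Ppard had 17.04 CPM there, against at most 10.74 CPM in the others. Esrra had 56.71 CPM there, against at most 42.77 CPM in the others. Hnf4a, at 569 CPM, lay within the range of the liver libraries, and the other 7 receptors lay below it, from Nr1i3 at 0.171 CPM to Rxra at 111 CPM. This is 1 library, so the values have no replicate. No library stood apart from its own group in any of 40 tests of the 10 receptors in 4 groups, where chance gives about 1 in 20.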

How the results depend on the processing

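The fasting counts of 3 receptors in each genotype were 3 under all other settings except 23 libraries, which put the kidney-like library back, where they were 0 in knockouts and 0 in controls, and 3 to 4 with 1 library left out. The genotype and interaction counts were 0 throughout. Called receptors kept their direction in every setting run, and 6 calls were lost, all with 23 libraries. Of values on receptors that never passed, the log2 fold changes that changed sign with 23 libraries were those of the interaction for Ppara (0.056), Pparg (0.098) and Esrra (-0.009), of the averaged genotype effect for Ppard (-0.035), Rxra (0.069) and Nr1i2 (0.014), of genotype in fasted livers for Rxra (0.19), Nr1h3 (0.10), Nr1h4 (0.11), Nr1i2 (0.17) and Hnf4a (0.039), and of fasting in controls for Rxra (-0.085). With library totals those of fasting in knockouts for Ppard (-0.036) and of genotype in fasted livers for Nr1h4 (0.001) did so. Genotype in fasted livers for Nr1i3 was -0.011 with RLE factors, -0.01 with a mean CPM of at least 1, -0.011 with DESeq2, -0.029 with sample weights and -0.034 with the random block, and for Nr1h4 it was 0.027 with sample weights. With 1 library left out, genotype in fasted livers ran from -0.073 to 0.039 for Hnf4a, -0.056 to 0.065 for Nr1h4, -0.107 to 0.121 for Nr1i3 and -0.096 to 0.034 for Rxra. The interaction ran from -0.063 to 0.123 for Nr1i2, -0.26 to 0.005 for Ppara, -0.24 to 0.12 for Pparg and -0.047 to 0.084 for Rxra, and Ppard from -0.02 to 0.11 for fasting in knockouts and -0.01 to 0.13 for the averaged genotype effect. The cause of these changes was not tested. Over all genes, calls with 23 libraries numbered 379 for fasting in knockouts, against 1029, and 805 in controls, against 1360. DESeq2 called 83 genes against 1 for genotype in fed livers, 39 against 6 for the averaged effect and 10 against 1 for the interaction. No paired analysis was possible because replicate numbers were given in accession order and the titles share none across groups. Runs of neighbouring title numbers, as a random block, had a correlation of -0.013. Low counts limit Pparg and Ppard, and 5 to 6 libraries a group limit small differences in every receptor.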
